A study of Mus musculus with 11 samples.

Results

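The 9 genes described here are the receptor for colony stimulating factor 1 (Csf1r), its ligands Csf1 and Il34, the receptor chains for the related factors GM-CSF and G-CSF (Csf2ra, Csf2rb and Csf3r), and the transcription factors Spi1, Irf8 and Runx1. They were chosen by symbol from the 32287 genes counted, and all 9 had counts. Their UMIs (unique molecular identifiers, which count captured RNA molecules) were summed per mouse over cells gated as microglia, macrophages, monocytes, neutrophils, endothelial cells (EC), mural cells and fibroblasts of the brain vasculature. No member served as a marker in the gates, so the class levels below were not fixed by the way the cells were chosen.

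CSF1R is a receptor tyrosine kinase on the surface of microglia, macrophages and monocytes, and microglia depend on its signal for their survival. CSF1 and interleukin 34 (IL34) are separate secreted proteins that bind the same receptor. GM-CSF signals through CSF2RA paired with the common beta chain CSF2RB, and G-CSF through CSF3R, which is best known from neutrophils. PU.1 (the product of Spi1), IRF8 and RUNX1 are DNA-binding proteins of myeloid development, and PU.1 binds purine-rich sites that include GAGGAA.

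The stretches of 250 bases before the RefSeq start of Csf1 and Csf2ra (GRCm38.p6) are printed because one is a gene read in vascular and myeloid cells and the other a gene read mainly in myeloid cells. Csf1 lies on the minus strand with its stretch at chr3:107760470-107760719, and Csf2ra on the minus strand with its stretch at chr19:61228419-61228668. Capitals mark GAGGAA or its reverse complement, searched on both strands, and the letters run 5′ to 3′ towards the start.
Csf1: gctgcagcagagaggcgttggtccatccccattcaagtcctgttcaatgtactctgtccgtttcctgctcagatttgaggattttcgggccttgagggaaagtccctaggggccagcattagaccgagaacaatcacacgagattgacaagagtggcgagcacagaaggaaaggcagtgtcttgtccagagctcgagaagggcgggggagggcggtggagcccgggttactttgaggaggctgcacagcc
Csf2ra: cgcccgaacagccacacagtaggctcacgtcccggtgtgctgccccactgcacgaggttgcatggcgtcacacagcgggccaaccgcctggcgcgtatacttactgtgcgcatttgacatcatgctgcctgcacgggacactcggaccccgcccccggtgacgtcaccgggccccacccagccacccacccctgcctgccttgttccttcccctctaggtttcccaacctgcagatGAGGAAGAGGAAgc
The Csf1 stretch held no match and the Csf2ra stretch held 2 adjacent ones. The last bases of the Csf2ra stretch lie inside the annotated gene (chr19:61223957-61228429), and the matches stand at that end, reaching into it. RefSeq stretches were matched for 5 of the 9 members, with 7 starts among them, and 3 of those 7 held the letters, beside 23.3% of all 32851 stretches of the same length. A match describes letters and not a bound site.

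Each of 11 mice, 6 of them R182C-TgN3 and 5 WT-TgN3, gave a single library. R182C-TgN3 mice carry a human NOTCH3 transgene with the p.(Arg182Cys) change of CADASIL, an inherited small vessel disease, and WT-TgN3 mice carry human NOTCH3 without it. The mice were untreated, 6 or 9 months old (3 of each age among R182C-TgN3, 3 and 2 among WT-TgN3) and of both sexes, and each of the 4 batches held mice of a single age. Brains were digested to microvessel fragments, the fragments were caught on beads with antibodies against CD31 (an endothelial surface protein) and digested again to single cells, so the microglia and other immune cells are those that came along with vessels.

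Between 17550806 and 64215050 UMIs were counted per library. Of 66658 barcodes, 61625 passed the filters and 54365 took a class, while 11.8% of those passing had no class, and 966 barcode sequences occurred in more than 1 library. The gates held 14016 microglia (531 to 2705 per mouse), 35658 EC, 2740 mural cells (98 to 366 per mouse), 148 macrophages, 109 monocytes, 109 fibroblasts and 2 neutrophils. None of these 7 classes had a marker of another among its leading 10 genes, an outcome that the gate itself favours and that does not measure purity. A level is given in CPM, the UMIs of a gene per 1000000 UMIs of the class in that mouse, with 1 value for each mouse with at least 10 cells, which left 8 mice for macrophages, 4 for monocytes, 5 for fibroblasts and none for neutrophils. The summed EC markers of the gates ran from 1011 to 3277 CPM in mural cells and from 449 to 1111 CPM in microglia. In mural cells, human NOTCH3 was read at 290.0 to 560 CPM in R182C-TgN3 and at 53.5 to 90.9 CPM in WT-TgN3 mice, with no overlap (edgeR log2 fold change 2.34, SE 0.20, adjusted p = 2.66e-05), so the transgene RNA itself differed between the groups.

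Csf1 was read in microglia, EC, fibroblasts and mural cells, and it was the member whose UMIs were shared most evenly between microglia and vessel cells. Of its 25269 UMIs over all classed cells, 59.8% came from EC and 37.0% from microglia, the 2 most numerous classes. The gene lies at chr3:107741048-107760469 on the minus strand (mm10, GENCODE vM21), with no other annotated gene over it. In microglia the Csf1 level was 118 ± 36.7 CPM (SD, n = 11), with 70.1 as the lowest, 112 as the median and 202 as the highest mouse. In EC it was 61.7 ± 5.64 CPM (SD, n = 11), between 52.8 and 70.1 with a median of 61.9. Each mouse had the higher level in its microglia, and the 2 ranges met only at their edges, since the lowest microglial value and the highest endothelial one both rounded to 70.1. The mean difference within mouse was 0.87 on the log2 scale (SD 0.42, higher in 11 of 11 mice), and the 2-sided exact sign-flip permutation test gave p = 0.000977, the smallest that 11 mice allow, and 0.0215 after adjustment over the 44 pairs of neighbouring classes compared for all members.

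In fibroblasts the Csf1 values of the 5 mice were 29.9, 49.1, 51.0, 77.2 and 86.5 CPM. EC and fibroblasts did not differ beyond their spread (difference 0.15, SD 0.50, higher in 3 of 5 mice, exact permutation p = 0.62, adjusted 0.743), and 5 mice cannot give a p under 0.0625. In mural cells the level was 22.1 ± 5.20 CPM (SD, n = 11), from 12.4 through a median of 23.1 to 31.0, below the level in EC of the same mouse in 11 of 11 mice (mean difference of mural cells from EC -1.47 on the log2 scale, exact permutation p = 0.000977, adjusted 0.00167 over 36 further pairs of classes, which were chosen after the values were seen). Macrophages and monocytes gave hardly any Csf1, with 6 UMIs among 148 macrophages and 11 UMIs among 109 monocytes, 10 of which lay in R182C-TgN3 mouse 1.

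Il34 was read in mural cells. Of its 3645 UMIs, 85.6% came from mural cells, which were the source of far fewer UMIs in all than EC, and 10.0% from EC. The gene spans chr8:110741829-110805924 on the minus strand and has 2 antisense genes over it, Gm15894 and Gm15895, whose RNA could not be told apart from that of Il34 if strand was not used in counting. In mural cells the Il34 level was 141 ± 25.8 CPM (SD, n = 11), with a lowest value of 95.8, a median of 143 and a highest of 198.5. The 5 fibroblast values were 30.2, 34.8, 38.2, 48.1 and 64.4 CPM, all under the lowest mural value. The share of all genes separated in this way between mural cells and fibroblasts was not counted. Mural cells were above fibroblasts in 5 of 5 mice by 1.73 on the log2 scale (SD 0.58), with an exact permutation p of 0.0625, the smallest possible with 5 mice, and 0.196 after adjustment.

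In EC, Il34 was at 1.65 ± 0.75 CPM (SD, n = 11), with 3.14 as the highest mouse. Microglia gave 0.79 ± 0.45 CPM (SD, n = 11), from 54 UMIs in 14016 cells. Macrophages held 2 Il34 UMIs and monocytes none, which with 3 counts as the limit allows up to 4.03 CPM in monocytes. Among the cells that read the receptor, the IL34 ligand was therefore at or near 0. The mean difference between mural cells and EC was 5.78 on the log2 scale in 11 of 11 mice (exact permutation p = 0.000977, adjusted 0.00167 over the 36 further pairs).

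Within both vessel cell types the ligand levels varied by subset. The subsets were set by marker lists chosen after the values were seen and are given as a description with no test. Mural cells with pericyte markers (Kcnj8, Abcc9, Higd1b, Ndufa4l2 and Atp13a5), called PC-list cells, numbered 646, and those with markers of smooth muscle cells (Myh11, Tagln, Cnn1, Mustn1 and Pln), called SMC-list cells, numbered 1766. Il34 stood at 354 ± 78.5 CPM (SD, n = 11) in PC-list cells and at 86.3 ± 14.9 CPM in SMC-list cells. The lowest PC-list value was 257 CPM and the highest SMC-list value 116 CPM, and the mean log2 difference was 2.01 in 11 of 11 mice. The share of all genes separated in this way was not counted. Higd1b and Ndufa4l2, on the pericyte list, are also the genes most correlated with Il34 over classes (r = 0.995 and 0.994). Csf1 was about level between the same subsets, at 23.2 ± 20.8 CPM in PC-list and 22.0 ± 6.08 CPM in SMC-list cells (SD, n = 11 each).

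Among EC, 894 cells had venous markers (such as Slc38a5, Nr2f2 and Vcam1), 3457 arterial markers (such as Bmx, Gkn3 and Sema3g) and 14531 capillary markers (such as Mfsd2a, Tfrc and Slc16a1). Csf1 was read at 102 ± 32.9 CPM in venous-list EC, 47.2 ± 6.52 CPM in arterial-list EC and 33.0 ± 4.56 CPM in capillary-list EC (SD, n = 11 each). The venous-list value was above the capillary-list value of the same mouse in 11 of 11 mice. The 16776 EC that took none of these subsets had 78.7 ± 8.18 CPM (SD, n = 11), more than the arterial-list and capillary-list cells, so most endothelial Csf1 UMIs (10980 of 15120) lay in cells without a clear zone.

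**Figure D1:**
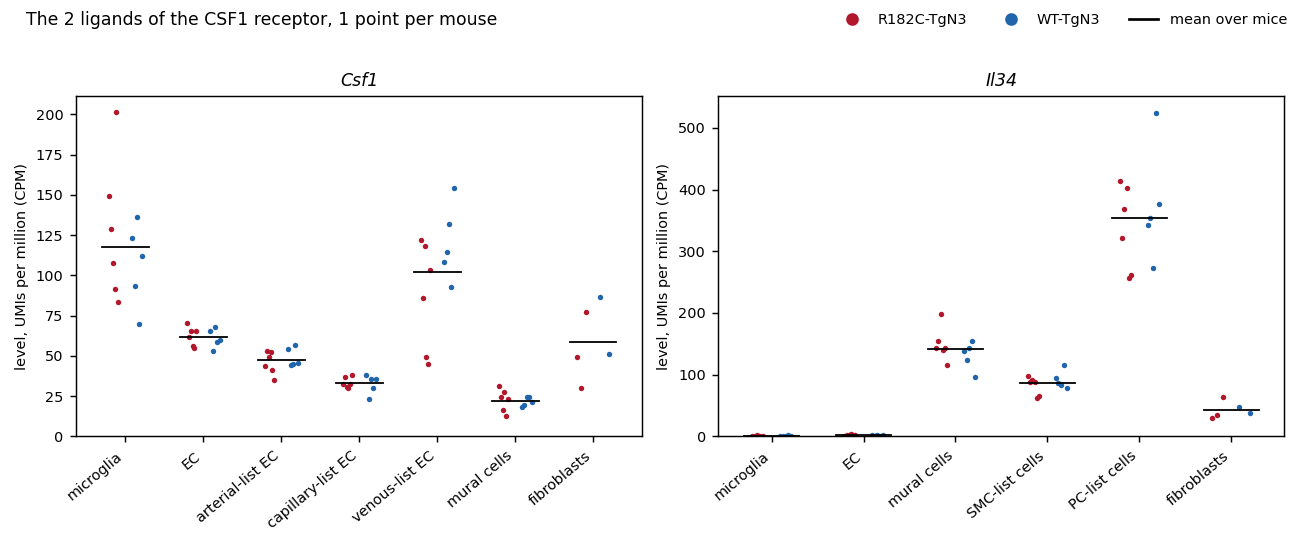
Levels of Csf1 (left) and Il34 (right) on the y axis in CPM, with 1 point per mouse (red R182C-TgN3, blue WT-TgN3) and a line at the mean, by class and marker-list subset on the x axis. Csf1 is spread over microglia and venous-list EC with means of 118 and 102 CPM, while Il34 peaks in PC-list cells with a mean of 354 CPM and lies near 0 in microglia and EC.

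Csf1r was read in microglia, macrophages and monocytes, and in EC and mural cells only at the level of microglial genes that vessel cells should lack. Microglia held 96.6% of its 116987 UMIs. The gene lies at chr18:61100598-61132149 on the plus strand, overlaps Hmgxb3 on the other strand, and starts 15537 bases after the end of Pdgfrb, a mural marker of the gates. Microglia had 1455 ± 79.1 CPM (SD, n = 11), from 1324 through a median of 1430 to 1585. Macrophages had 859 ± 166 CPM (SD, n = 8), from 646 through a median of 873 to 1101. The 4 monocyte values were 473, 477, 509.9 and 510.2 CPM. These 3 ranges did not overlap, and every microglial value was above every macrophage value. Microglia were above macrophages in this way for 7.5% of 9582 genes, and the share of genes separated from monocytes was not counted. Within mouse the microglia were 0.78 above macrophages on the log2 scale (SD 0.31) in 8 of 8 mice, with an exact permutation p of 0.00781, the smallest that 8 mice allow, and 0.0573 adjusted over the 44 neighbouring pairs, so the order of these 2 classes missed the threshold in that family.

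In EC the Csf1r level was 10.7 ± 4.74 CPM and in mural cells 12.6 ± 8.76 CPM (SD, n = 11 each). EC and mural cells did not differ beyond their spread (difference 0.10, SD 0.61, higher in 7 of 11 mice, exact permutation p = 0.608), and both were under microglia by about 7 on the log2 scale, 7.08 for EC and 6.97 for mural cells, in 11 of 11 mice (exact permutation p = 0.000977, adjusted 0.00167 over the 36 further pairs). The EC value was 0.745% of the microglial one. Genes of microglia that vessel cells should lack, C1qa, C1qb, C1qc, Ctss and Fcer1g, served as a reference. Their list was cut to these 5 after its values were seen. In EC they were read at 0.741% to 1.07% of their microglial level with a median of 0.843%, and the Csf1r value lay within that range, near its lower end. The mural value of Csf1r, 0.813%, lay within the range of these genes there, 0.680% to 1.05% with a median of 0.777%. The part of carried-over microglial RNA in the Csf1r values was not tested. Csf1r was above all 5 of these genes in 2 of 11 mice in EC and in 2 of 11 in mural cells.

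**Figure D2:**
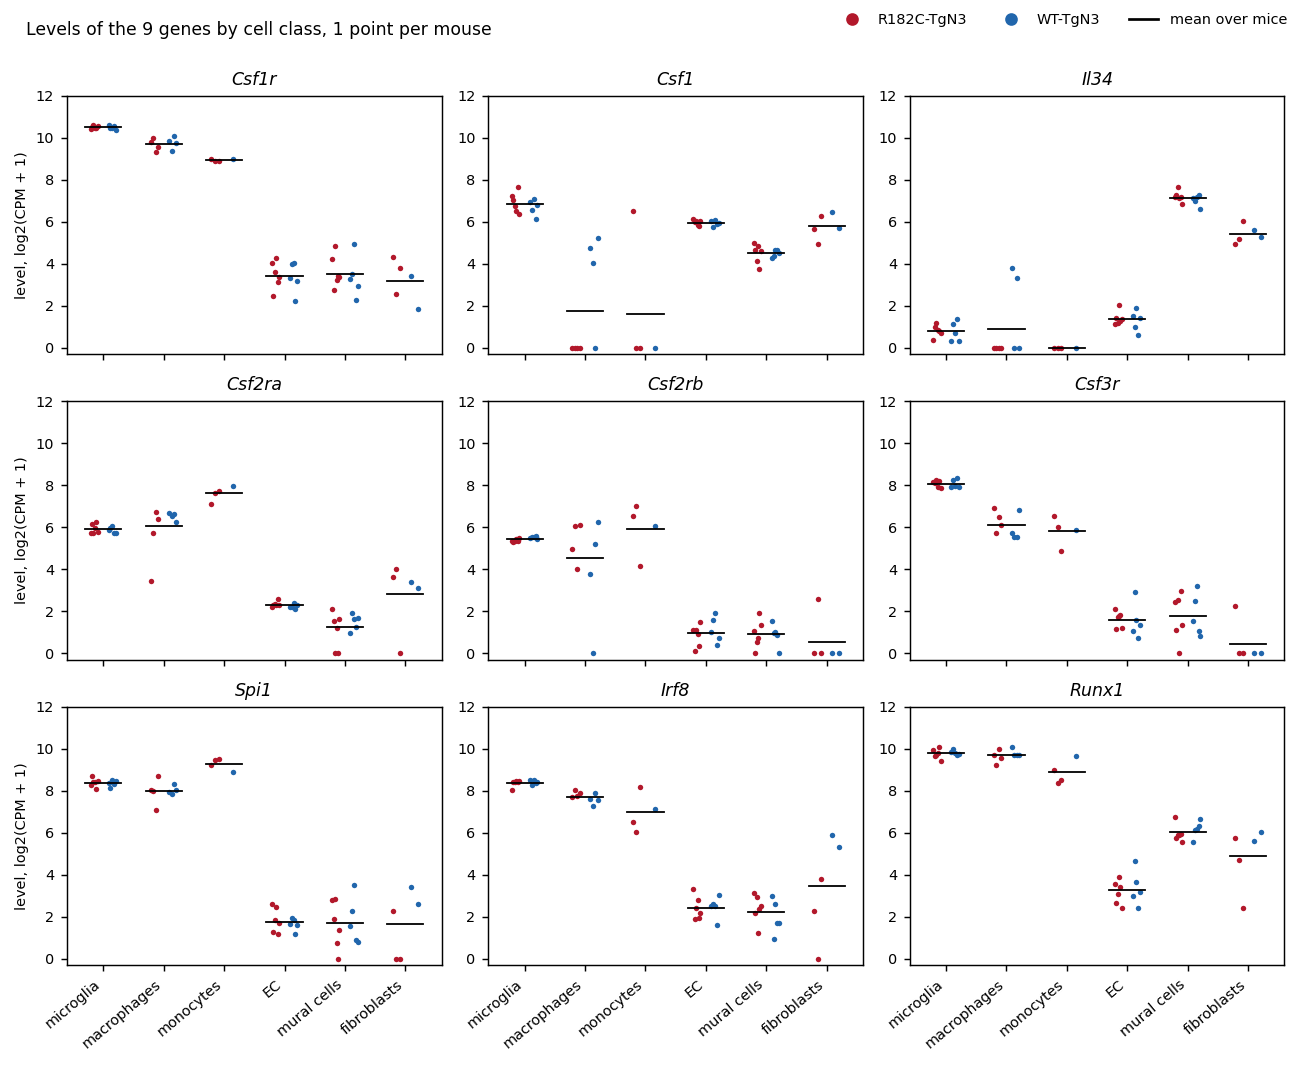
Level of each of the 9 genes as log2(CPM + 1) on the y axis in 6 cell classes on the x axis, with 1 point per mouse of at least 10 cells (red R182C-TgN3, blue WT-TgN3) and a line at the mean. The receptors and transcription factors stand high in microglia, macrophages and monocytes, Csf1r with 1455, 859 and 492 CPM, while Csf1 is read in microglia (118 CPM) and vessel cells, Il34 is highest in mural cells (141 CPM) and genotypes overlap in microglia, EC and mural cells for every gene.

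Of the other receptors, Csf2ra and Csf2rb had their highest mean in monocytes and Csf3r in microglia. Csf2ra, the ligand-binding chain for GM-CSF at chr19:61223957-61228429 (minus strand), had monocyte values of 137, 199.9, 213 and 247 CPM. Macrophages had 77.2 ± 32.3 CPM (SD, n = 8) and microglia 59.5 ± 8.17 CPM (SD, n = 11, from 51.3 through a median of 58.0 to 74.8). All 4 monocyte values were above all 11 microglial ones, and macrophages and microglia overlapped and did not differ beyond their spread (difference 0.19, SD 1.08, higher in 6 of 8 mice, exact permutation p = 0.672). Csf2ra in EC was low, at 3.92 ± 0.43 CPM, yet above mural cells (1.64 ± 1.04 CPM) in 11 of 11 mice by 1.02 on the log2 scale (exact permutation p = 0.000977, adjusted 0.0215 over the 44 neighbouring pairs). Those EC values were 6.66% of the microglial level, above all 5 reference genes in 11 of 11 mice.

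Csf2rb, the shared beta chain, was read at 16.8, 65.8, 91.1 and 127 CPM in the monocytes of 4 mice. Microglia had 42.3 ± 2.79 CPM (SD, n = 11), between 38.0 and 46.9 with a median of 41.9, and macrophages 37.5 ± 28.2 CPM (SD, n = 8). The 3 classes overlapped, and neither monocytes against microglia (exact permutation p = 0.5) nor microglia against macrophages (exact permutation p = 0.289) differed beyond the spread. The gene, at chr15:78325752-78353847 on the plus strand, has the near copy Csf2rb2 20031 bases away, read at 14.6 ± 2.47 CPM in microglia, and reads that match both copies make each count uncertain.

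Csf3r, the G-CSF receptor at chr4:126024550-126044440 on the plus strand, had 270.2 ± 30.8 CPM in microglia (SD, n = 11), from 230 through a median of 274 to 321. Macrophages had 72.7 ± 30.1 CPM (SD, n = 8), and the 4 monocyte values were 28.0, 57.6, 63.6 and 91.1 CPM. Every microglial value exceeded every macrophage and monocyte value. Microglia were above macrophages in this way for 7.5% of 9582 genes, and the share of genes above monocytes was not counted. The within-mouse difference from macrophages was 2.00 on the log2 scale (SD 0.62) in 8 of 8 mice, with the smallest possible exact permutation p of 0.00781 (adjusted 0.0573). The 2 neutrophils held 9 Csf3r UMIs, 5 in 1 cell and 4 in the other, and no Csf1r UMI, but so few cells carry no comparison.

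The transcription factors were read across the mononuclear classes, Spi1 with its highest mean in monocytes and Irf8 and Runx1 in microglia. Spi1, which encodes PU.1 and lies at chr2:91082390-91115756 on the plus strand, had monocyte values of 477, 592, 709 and 723 CPM. Microglia had 331 ± 40.5 CPM (SD, n = 11), from 268 through a median of 339 to 409, and macrophages 264 ± 81.2 CPM (SD, n = 8). All 4 monocyte values were above all 11 microglial ones. The monocyte level exceeded the microglial one of the same mouse by 0.86 on the log2 scale (SD 0.33) in 4 of 4 mice, where the smallest exact permutation p is 0.125.

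Irf8, an interferon regulatory factor at chr8:120736358-120756694 on the plus strand, had 334 ± 30.2 CPM in microglia (SD, n = 11), from 257 through a median of 339 to 365. Macrophages had 210 ± 33.7 CPM (SD, n = 8), and the 4 monocyte values were 63.6, 91.1, 140 and 286 CPM. Microglia were above macrophages in 8 of 8 mice by 0.66 on the log2 scale (SD 0.30, exact permutation p = 0.00781, adjusted 0.0573), although the lowest microglial mouse was under the highest macrophage value of 261 CPM.

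Runx1, at chr16:92601466-92826149 on the minus strand with the antisense gene Gm26626 over it, was also read in mural cells. Microglia had 890.3 ± 110.0 CPM (SD, n = 11), from 683 through a median of 891 to 1086, and macrophages had 848 ± 154 CPM (SD, n = 8). Microglia and macrophages overlapped and did not differ beyond their spread (difference 0.04, SD 0.23, higher in 4 of 8 mice, exact permutation p = 0.688), with monocytes at 327, 364, 501 and 806 CPM. Mural cells had 67.8 ± 19.9 CPM (SD, n = 11), from 45.5 through a median of 59.4 to 105, and EC 9.71 ± 5.70 CPM.

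Mural cells were above EC for Runx1 in 11 of 11 mice by 2.78 on the log2 scale (exact permutation p = 0.000977, adjusted 0.00167 over the 36 further pairs). The mural Runx1 level was 7.99% of the microglial one, above all 5 reference genes in 11 of 11 mice, whereas in EC it was 1.11% and above them in 4 of 11. In the marker-list subsets, Runx1 stood at 72.6 ± 22.0 CPM in SMC-list cells and 26.4 ± 17.4 CPM in PC-list cells (SD, n = 11 each), higher in the SMC-list cells of 11 of 11 mice. Both genes were read in both subsets, with the higher Il34 level in PC-list cells and the higher Runx1 level in SMC-list cells, as a description with no test.

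Counted over the members, 7 of the 8 that reached 10 CPM in microglia or EC had every microglial value above every EC value, beside 27.8% of 10223 genes. The exception was Csf1. Microglia were above macrophages without overlap for 3 of 8 members (Csf1r, Csf1 and Csf3r), beside 7.5% of 9582 genes, and monocytes were above microglia without overlap for 2 of 8 (Csf2ra and Spi1), beside 12.7% of 9611. Mural cells were above EC without overlap for 2 of 4 members (Il34 and Runx1), beside 15.7% of 9907 genes, and EC above mural cells for 1 of 4 (Csf1), beside 22% of the same genes. Of the 44 neighbouring pairs in the members' orders, 2 passed the threshold, Csf1 in microglia over EC and Csf2ra in EC over mural cells. Most of the others rest on 4, 5 or 8 mice, with smallest possible p-values of 0.125, 0.0625 and 0.00781.

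Cell by cell, most microglia held the receptor and few held its ligand. To compare shares across depths, each cell was thinned to 2000 UMIs and shallower cells were left out, 1574 microglia, 2606 EC and 132 mural cells among them. After thinning, 93.0% of 12442 microglia had a Csf1r UMI (95% Wilson interval 92.5% to 93.4%, for counting error only), and 98.5% of 14016 before it. Among EC the share was 2.49% after and 5.82% before thinning, at median depths of 4887 UMIs in EC and 5230 in microglia. The EC share is given for comparison, and the part of carried-over RNA in it was not tested. Csf1 was found in 11.5% of thinned microglia and 8.09% of thinned EC, and before thinning in 18.4% and 21.3%, so the order of these shares turned with depth while the CPM order followed the thinned one. Il34 was found in 25.6% of thinned mural cells and 54.4% before thinning, beside 0.272% and 0.962% of EC. Runx1 was found in 73.8% of thinned microglia, 11.04% of thinned mural cells and 1.86% of thinned EC.

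Csf1 was unevenly spread among microglia. If its UMIs had fallen on cells evenly, 21.1% ± 5.97 of thinned microglia would have held at least 1, while 11.5% ± 2.27 did (SD, n = 11), fewer in 11 of 11 mice. A microglial cell with any Csf1 UMI held 2.04 ± 0.32 on average, and 4.92% ± 1.83 of microglia held at least 2. Runx1 also fell below the even share, at 73.8% ± 3.33 against 83.6% ± 4.27, in 11 of 11 mice. For Csf1r, Csf2ra, Csf2rb, Csf3r, Spi1 and Irf8 the observed and even shares lay within 2 percentage points of each other, such as 41.6% and 42.9% for Csf3r. Small as these gaps were, Csf1r and Csf3r were also below the even share in 11 of 11 mice and Spi1 in 10 of 11. The even share of Csf1r was 94.9%, which leaves little room for a gap. In EC, Csf1 was closer to even, at 8.05% ± 0.86 against 8.86% ± 1.03.

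**Figure D3:**
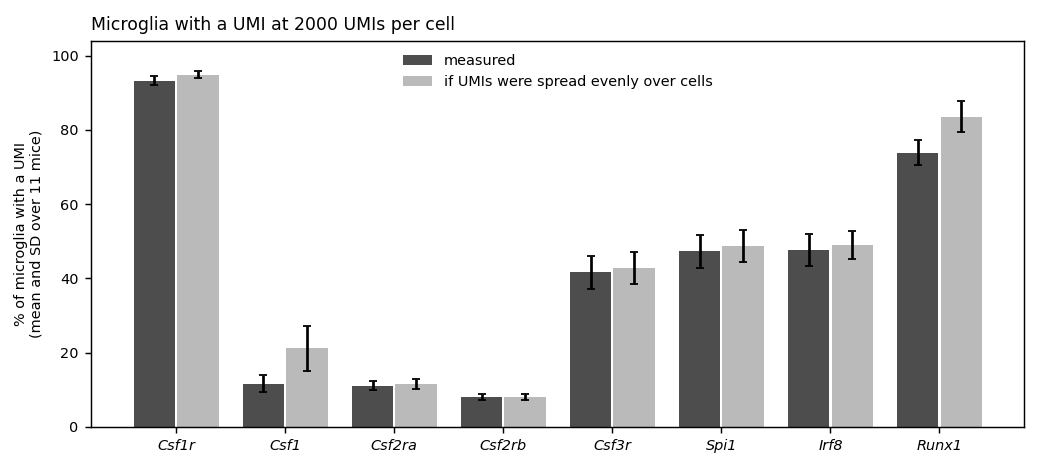
Share of microglia with at least 1 UMI of each gene after thinning to 2000 UMIs (y axis, %), as observed and as it would be if the UMIs were spread evenly over cells, with mean and SD over 11 mice. The bars differ most for Csf1 (11.5% observed against 21.1% even) and Runx1 (73.8% against 83.6%) and are close for the other members.

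A sum for at least 2 Csf1 UMIs after thinning was set beside a sum for none, over the same 12442 microglia. This is a description with no test, since the cells were weighted by a measured gene after the values were seen. Each cell's unthinned counts were weighted by its probability of holding that many Csf1 UMIs after thinning, so 1 cell could add to both sums. In the single thinning drawn, 618 cells held at least 2 and 11005 held none. Csf1 itself stood at 1370 CPM in the sum for at least 2 and at 25.9 CPM in the sum for none. The genes named here were chosen after their values were seen. Of 3692 genes with a mean of at least 50 CPM in either sum, Csf1 left out, 39 were higher in all mice and 31 lower. Clec7a, which the paper uses together with Apoe to mark disease-associated microglia, had the largest ratio. Clec7a passed the limit of 50 CPM only through the sum where it was higher, which favours a large ratio. Apoe was not among the genes with the largest ratios. Clec7a stood at 52.1 ± 23.5 CPM in the sum for at least 2 UMIs and 14.8 ± 5.08 CPM in the sum for none. That difference held in 11 of 11 mice. Tnf, an inflammatory cytokine gene, stood at 351 ± 91.5 against 211 ± 38.8 CPM (SD, n = 11). Cd83 stood at 762 ± 153 against 471 ± 79.6 CPM, and the chemokine Ccl4 at 5323 ± 1442 against 3424 ± 943 CPM. Each of these genes was higher in 11 of 11 mice. Cxcl10, an interferon-induced chemokine, was higher in 9 of 11 mice, at 132 ± 70.7 against 52.1 ± 21.1 CPM. The receptor went the other way and was lower in all 11 mice. Csf1r stood at 1353 ± 72.0 CPM in the sum for at least 2 UMIs and at 1443 ± 72.4 CPM in the sum for none. Runx1 was higher in 10 of 11 mice, at 1014 ± 180 against 886 ± 111 CPM.

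The members also differed in how much they varied from mouse to mouse in microglia. Among the 8 members above 10 CPM there, which leaves out Il34, Csf1 was the most variable, with the highest mouse 2.88-fold above the lowest and a coefficient of variation of 31.1%, against 3.95% from counting alone. Csf1r varied by 5.44% (1.13% from counting), and Csf2rb by 6.61%, no more than its counting error of 6.65%. The highest Csf1 level, 202 CPM, belonged to R182C-TgN3 mouse 5 and the next, 149 CPM, to R182C-TgN3 mouse 1, while the lowest, 70.1 CPM, belonged to WT-TgN3 mouse 4. Stress genes that tissue digestion is known to raise (Fos, Jun, Hspa1a and others, 10 in all) summed to 14227 to 24592 CPM in the microglia of R182C-TgN3 and to 16196 to 27590 CPM in those of WT-TgN3 mice. Of the mice just named, R182C-TgN3 mouse 5 had the sum of 14227 CPM, R182C-TgN3 mouse 1 that of 24592 CPM and WT-TgN3 mouse 4 had 16871 CPM. The part of the stress genes in the Csf1 spread was not tested.

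The study set R182C-TgN3 against WT-TgN3 mice to ask how the CADASIL change affects vessel-associated cells. No member was called between the genotypes in microglia. In the edgeR fit, 0 of 11307 genes passed an adjusted p of 0.05 (0%), 151 had an unadjusted p under 0.05, and DESeq2 also called 0, with 115 under that unadjusted p. Csf1r had 1459 ± 77.4 CPM in R182C-TgN3 (n = 6, lowest 1378, median 1434, highest 1585) and 1450 ± 90.0 CPM in WT-TgN3 mice (n = 5, the values 1324, 1424, 1430, 1523 and 1550), with a log2 fold change of 0.03 (SE 0.09, 95% interval -0.17 to 0.22). The groups overlapped over most of their ranges.

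Csf1 in microglia had 127 ± 43.9 CPM in R182C-TgN3 (n = 6, lowest 83.2, median 118, highest 202) and 107 ± 26.0 CPM in WT-TgN3 mice (n = 5, the values 70.1, 93.1, 112, 123 and 136). The log2 fold change of 0.24 (SE 0.21, edgeR adjusted p = 1.00) had a 95% interval from -0.20 to 0.69, so a rise of up to 1.61-fold or a fall to 0.871-fold could not be told apart from none. Csf2rb had 40.5 ± 1.89 CPM in R182C-TgN3 (n = 6, highest 43.3) and 44.5 ± 1.99 CPM in WT-TgN3 mice (n = 5, lowest 41.8), which overlapped, with a log2 fold change of -0.11 (95% interval -0.29 to 0.06). For Csf2ra, Csf3r, Spi1, Irf8 and Runx1 the log2 fold changes lay between -0.03 and 0.06. Il34 was too low in microglia to enter the test.

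**Figure D4:**
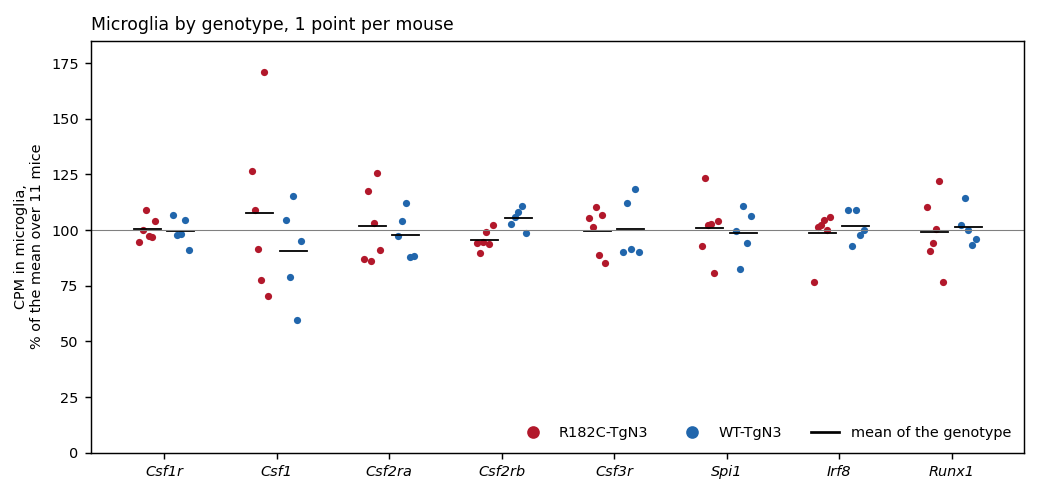
Level of 8 members in the microglia of each mouse, as a percentage of the mean over 11 mice (y axis), with R182C-TgN3 mice in red and WT-TgN3 mice in blue. The genotypes overlap for every gene, and Csf1 has the widest spread, from 70.1 to 202 CPM around its mean of 118.

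In EC, 0 of 12954 genes were called (0%), 197 had an unadjusted p under 0.05, and DESeq2 called 0 with 186 under that p. All 9 members entered this test and none was called. Csf1 in EC had 62.4 ± 5.82 CPM in R182C-TgN3 (n = 6) and 60.9 ± 5.97 CPM in WT-TgN3 mice (n = 5), with a log2 fold change of 0.09 (SE 0.08, 95% interval -0.09 to 0.27), the narrowest interval of any ligand value here.

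In mural cells 1 of 9932 genes was called (0.0101%), human NOTCH3 itself, with 343 at an unadjusted p under 0.05, and 4 members could be tested. Il34 had 149 ± 27.3 CPM in R182C-TgN3 (n = 6, lowest 116, median 143, highest 198.5) and 132 ± 22.8 CPM in WT-TgN3 mice (n = 5, the values 95.8, 124, 139, 144 and 155). Its log2 fold change was 0.18 (SE 0.14, edgeR adjusted p = 1.00, 95% interval -0.11 to 0.47), and the groups overlapped. The mix of mural subsets, between which Il34 differed, varied by mouse. PC-list cells were 35 of 196 mural cells (mouse 4) to 164 of 335 (mouse 3) in R182C-TgN3. In WT-TgN3 they were 33 of 360 (mouse 4) to 71 of 196 (mouse 3). Il34 ran from 257 to 414 CPM in PC-list cells of R182C-TgN3 and from 273 to 525 CPM in those of WT-TgN3 mice. In SMC-list cells it ran from 61.4 to 98.0 and from 77.5 to 116 CPM. The part of this mix in the Il34 fold change was not tested. Runx1 had a log2 fold change of -0.21 (95% interval -0.65 to 0.24), Csf1 of 0.10 (-0.31 to 0.51) and Csf1r of 0.39 (-0.59 to 1.38). The mice highest in mural Csf1r, WT-TgN3 mouse 3 and R182C-TgN3 mouse 3, had summed microglial markers of 152 and 116 CPM in their mural cells, where all mice lay between 37.3 and 152 CPM, and the part of microglial RNA in these values was not tested.

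**Figure D5:**
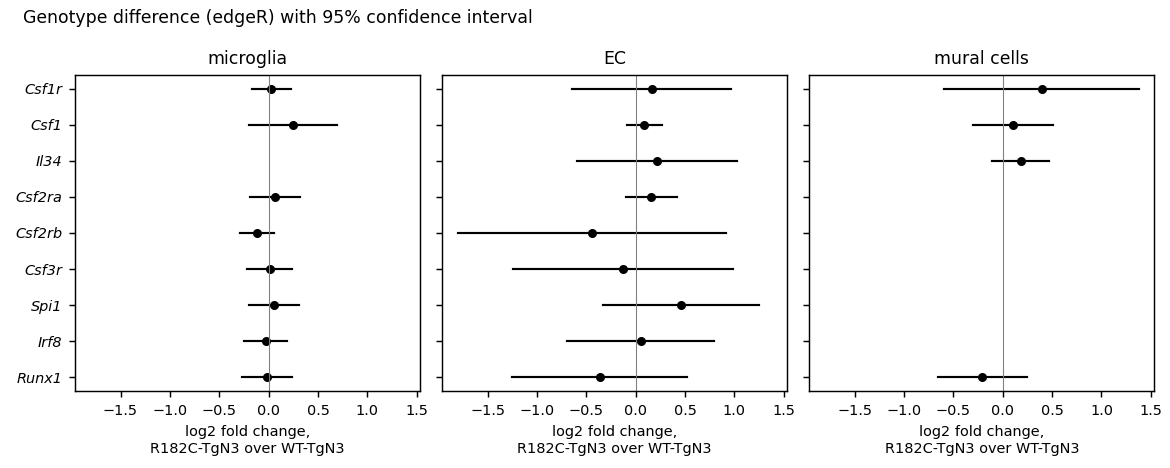
Log2 fold change of R182C-TgN3 over WT-TgN3 mice on the x axis with its 95% confidence interval for each member tested in microglia, EC and mural cells. The intervals of all members include 0, such as those of Csf1r in microglia (-0.17 to 0.22) and Csf1 in EC (-0.09 to 0.27).

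The genotype difference did not depend detectably on age for any member. Each batch held 1 age, so age and batch cannot be told apart. Only the difference of the genotype effect between 9 and 6 months was tested. The lowest unadjusted p among members was 0.00694, for Csf1r in mural cells (edgeR adjusted p = 0.74), where its level was 12.6 ± 8.76 CPM (SD, n = 11). In edgeR fits of 9 month mice alone, 3 of 7 members tested in mural cells had an unadjusted p under 0.05, beside 9.63% of genes. In EC it was 1 of 9, beside 2.30% of genes, and in microglia 0 of 9. In 6 month mice alone, no member had such a p in these classes. In macrophages the groups could be compared only with 10 cells per mouse as the limit, with 4 mice of each genotype, where 0 of 1074 genes were called and 35 had an unadjusted p under 0.05. Csf1r in macrophages had the values 646, 755, 896 and 1030.4 CPM in R182C-TgN3 and 657, 850.2, 935 and 1101 CPM in WT-TgN3 mice, which overlapped. Monocytes, neutrophils and fibroblasts were not tested, since fewer than 3 mice of a genotype, the minimum set here, had 10 cells.

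Other genes of the pathway were taken from 3 lists chosen with earlier results of these data known. The list of related cytokines and receptors had 10 genes, of which Csf2 and Il3, the genes of GM-CSF and interleukin 3, had 0 UMIs in every class here, and Csf3, the gene of G-CSF, had 48 UMIs in EC, 2 in mural cells and 1 in monocytes. Kitl, the ligand of the KIT receptor, was led by EC with 1035 CPM over all EC. The list of the signal relay below CSF1R had 18 genes, of which 16 reached 10 CPM in microglia, 17 in monocytes and 13 in EC. The phosphatase gene Inpp5d had 904 CPM in microglia and 69.5 CPM in EC, and Pik3cd, a phosphoinositide kinase subunit of leukocytes, 124 and 1.30 CPM. Of 18 further myeloid transcription factors, 13 reached 10 CPM in microglia, 16 in macrophages and 7 in EC, with Maf leading in macrophages (1407 CPM) and Cebpb in monocytes (2287 CPM).

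By genotype, no gene of the 3 lists was called in either direction in microglia, EC or mural cells. In microglia 4, 18 and 15 genes of the lists entered the edgeR fit, with median log2 fold changes of -0.01, -0.03 and -0.04 beside 0.00 over all genes. In EC 7, 18 and 13 were tested with medians of -0.06, -0.04 and -0.02, and in mural cells 2, 12 and 12 with medians of 0.16, -0.08 and -0.06, and none of them had an unadjusted p under 0.05. The genes with the lowest p were Pik3cd, Tyrobp and Fli1 in microglia, Tyrobp, Irf5 and Cebpa in EC, and Tyrobp, Cbl and Fli1 in mural cells. Tyrobp, an adaptor of myeloid receptors, had 14.7 ± 9.81 CPM in the mural cells of R182C-TgN3 and 10.1 ± 6.24 CPM in those of WT-TgN3 mice (edgeR log2 fold change 0.90, SE 0.45, adjusted p = 1.00).

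The patterns over classes put the members into groups. Over the 36 sums of a class in a mouse with at least 20 cells, log2(CPM + 1) of Csf1r correlated with Irf8 at r = 0.986, with Csf3r at 0.983 and with Spi1 at 0.98, but with Csf1 at only 0.122 and with Il34 at -0.575. Among 11770 genes the closest to Csf1r were Ctss (r = 0.993), Cd53, Ly86, Evi2a and Ptafr. Those closest to Il34 were Higd1b (0.995) and Ndufa4l2 (0.994), both gate markers of mural cells, and Daam2 (0.994), while Ecscr (0.968), 4930517O19Rik and Enoph1 were closest to Csf1. The closest to Runx1 were Dock8 (0.992), Pik3cd and Rasgef1b, to Csf3r Fgd2 (0.99), Gpr183 and Ly86, to Spi1 Fcer1g (0.991), Bcl2a1b and Pld4, and to Irf8 Cd300c2 (0.995), Aif1 and Arl11. For Csf2ra they were Cks2 (0.967), Ncf4 and Nfam1, and for Csf2rb Mpp6 (0.984), Mpeg1 and Gm35154. These sums share libraries and are split mainly by class, so the values describe class patterns across genes and give no test.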

How the data were processed

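The authors sequenced 11 libraries of 10x 3' single-cell RNA from 11 mice and made the counts with Cell Ranger 7.0.0 on the mm10 transcriptome with human NOTCH3 added; whether introns and strand were used is not given in the sources used here. The deposited values are raw UMI counts per gene and barcode, 17550806 to 64215050 per library.

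A barcode was kept from 500 detected genes upward unless mitochondrial UMIs exceeded 10% of its total. A marker counted as present when its share of the barcode's UMIs was above its share of all UMIs of the kept barcodes of that library. A cell took a class with at least 4 of its 10 markers present and at least 2 times as many as any other class. This also left mixed barcodes unclassed, and no doublet caller was run. The 9 members and the gene lists were chosen with earlier results of these data known. Counts were summed per mouse and class. Genotypes were compared with edgeR 4.0.16 (quasi-likelihood test, filterByExpr, TMM, Benjamini-Hochberg adjustment) in mice with at least 20 cells of the class, leaving out ribosomal, mitochondrial, Gm and Rik genes, with DESeq2 1.42.0 as an alternative. Neighbouring classes were compared within mouse by a 2-sided exact sign-flip permutation test on log2(CPM + 1), in mice with at least 10 cells of both. Named genes were all members, the 3 list genes with the smallest p in each genotype comparison, and the 5 genes most correlated with Csf1r and the 3 most correlated with each other member; the near copy Csf2rb2, the other list genes and the genes set beside Csf1 in microglia were chosen after their values were seen. The list of background reference genes was reduced to 5 after its values were seen, since 1 gene is not reported here, and the counts of mice above all of them depend on that choice. Intervals and floors (3 counts) cover counting error only. The study left 1 control sample out of its own microglial analysis, and all 11 mice were kept here. R 4.3.3, Python 3.11.15, numpy 2.4.6, scipy 1.17.1 and pandas 2.3.3 were used, and the fits were tested on simulated data. Alternatives covered the gate, filters, scaling, covariates, single ages and genotypes, thinning and leaving out each mouse.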

Additional observations from a re-analysis of the deposited data

Results flagged for a closer look

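A sample far from the others of its genotype was found in 7 of 55 groups of 4 to 6 mice, where chance flags about 1 in 20 groups. In microglia it was Irf8 in R182C-TgN3 mouse 1, at 257 CPM, the lowest of its group. In macrophages it was Runx1 in WT-TgN3 mouse 2, at 1089 CPM. In mural cells, Csf1r stood at 29.8 CPM in WT-TgN3 mouse 3, whose mural cells had summed microglial markers of 152 CPM, and Runx1 at 105 CPM in R182C-TgN3 mouse 1, with 127 CPM of those markers. In EC, Il34 stood at 3.14 CPM in R182C-TgN3 mouse 4, Csf2ra at 4.93 CPM in R182C-TgN3 mouse 5 and Csf3r at 6.53 CPM in WT-TgN3 mouse 2, with summed microglial markers of 101, 41.4 and 73.9 CPM. The part of microglial RNA in these values was not tested.

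Members were also read in immune cells that enter no comparison of the report. The 20 dendritic cells held Csf2ra at 202 CPM over all cells, Csf2rb at 89.1 CPM, Spi1 at 338 CPM, Irf8 at 492 CPM and Runx1 at 492 CPM. The 746 B cells held Irf8 at 204 CPM and Runx1 at 571 CPM, and the 286 T or NK cells held Runx1 at 526 CPM.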

How the results depend on the processing

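The counts of genes called between genotypes were 0 in microglia and in EC under all 28 alternatives. In mural cells the count of 1 became 2 with DESeq2 (NOTCH3 and Sdf2l1), between 1 and 2 when each mouse was left out in turn (2 without WT-TgN3 replicate 3, Ifitm1 and NOTCH3) and 3 in 9 month mice alone (NOTCH3, Pde3b and Ptgs2). No member was called in any of them, and the log2 fold change of Csf1 in microglia ranged from 0.07 to 0.50. With at least 5 cells per mouse, which adds mice, 14 neighbouring pairs passed in place of 2, and the difference of the highest class from the next passed the exact permutation test for Csf1r (0.84, adjusted p = 0.00716), Il34 (1.63, 0.0172), Csf3r (1.83, 0.00716) and Irf8 (0.89, 0.00716). With 1 genotype alone, which leaves fewer mice, 0 pairs passed, and Csf1 in microglia over EC gave 0.95 (exact permutation adjusted p = 0.44) in R182C-TgN3 and 0.77 (adjusted p = 0.571) in WT-TgN3 mice. Thinning moved the mean shares of cells with a UMI, from 76.3% (1000 UMIs) to 98.5% (no thinning) for Csf1r in microglia, 7.06% to 18.3% for Csf1 in microglia, 4.21% to 21.3% for Csf1 in EC and 15.6% to 52.7% for Il34 in mural cells.

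Whether the replicate numbers pair the mice was not settled, and the main fits used no pairs. Correlations of same-numbered deviations ran from 0.064 to 0.389 in microglia, -0.091 to 0.324 in EC and -0.05 to 0.269 in mural cells. In microglia 3 of 5 pairs matched their own number best, both pairs at 9 months among them. In EC only the 9 month pair numbered 2 did, and in mural cells no pair did. With the replicate block, 0 genes were called in microglia, 0 in EC and 1 in mural cells.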
